A study of Mus with 6 samples.

Results

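The aminoacyl-tRNA synthetases are the enzymes that load each amino acid onto its tRNA. They were taken from the deposited gene table by symbol: every row named as a 1-letter amino acid code followed by ars, with or without a closing 1 or 2, plus the phenylalanine chains Farsa and Farsb, the glutamate and proline enzyme Eprs, and the scaffold proteins Aimp1 and Aimp2. The rule gave 38 of the 10995 rows. Of these, 20 encode cytosolic enzymes, 16 encode mitochondrial enzymes (symbols ending in 2) and 2 encode scaffolds. Aimp2 ends in 2 but belongs to the cytosolic machinery. The mitochondrial glutamate enzyme Ears2 was not analysed here.

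Protein synthesis draws on charged tRNA in the cytosol and in the mitochondria, and most amino acids have a separate nuclear gene for each compartment. The glycine and lysine enzymes, Gars and Kars, serve both compartments. Several cytosolic enzymes sit together in the multisynthetase complex, which is held by Aimp1, Aimp2 and Eef1e1. Naive T cells make little protein, and antigen receptor signalling raises synthetase expression together with amino acid uptake as the cells grow and divide.

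The RNA came from wild-type mouse naive CD4+ T cells of the spleen. Every culture received 5 μg/mL of anti-CD3 antibody, 2 μg/mL of anti-CD28 antibody and 100 U/mL of the growth factor IL-2 for 3 days. In 3 libraries the medium also held 1 μg/mL of an antibody that neutralises VEGF-B, a growth factor of the VEGF family, and in the 3 control libraries it held 1 μg/mL of normal goat IgG. These groups are called anti-VEGF-B and IgG. The labels do not say whether the libraries of a group came from separate mice or cultures, so p-values measure only the spread between these libraries, which may be technical. Strain, sex and age of the mice were not given in the labels, and no batch was named.

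Values are FPKM, fragments scaled to the length of the transcript and to the mapped fragments of the library, so levels of different genes can be set side by side per length. Read depth is unknown. FPKM summed over all rows ran from 260058 to 276622 per library. The defining CD4+ T cell genes were present, with 9 of 9 listed and a summed level of 533 to 572 FPKM in anti-VEGF-B and 539 to 613 FPKM in IgG. Of 6 monocyte and macrophage markers 4 were listed, and their sum was 11.4 to 12.9 FPKM in anti-VEGF-B and 12.8 to 28.8 FPKM in IgG. The upper end came from IgG replicate 3, and the part of these cells in the results below was not tested. The only listed B cell marker of 6 had 0.798 to 1.33 FPKM in anti-VEGF-B and 0.665 to 1.34 FPKM in IgG, and no neutrophil or erythroid marker was listed. In bulk RNA, fewer cells of a type and less RNA per cell cannot be told apart.

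The serine enzyme Sars had the highest level of the family, with a mean of 102 FPKM over the 6 libraries. The scaffold Aimp2 followed at 83.5 FPKM, then the asparagine enzyme Nars at 66.7 FPKM, the glycine enzyme Gars at 37.3 FPKM and the lysine enzyme Kars at 31.5 FPKM. The lowest cytosolic level was that of Farsa, the alpha chain of the phenylalanine enzyme, at 3.18 FPKM. The mitochondrial enzymes were lower. Their highest level was 5.84 FPKM, for the tyrosine enzyme Yars2, and 7 of the 16 had means below 1 FPKM. Summed over the genes, the 20 cytosolic enzymes reached 471 ± 27.9 FPKM and the 16 mitochondrial enzymes 35.1 ± 2.79 FPKM in IgG (SD, n = 3).

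**Figure D1:**
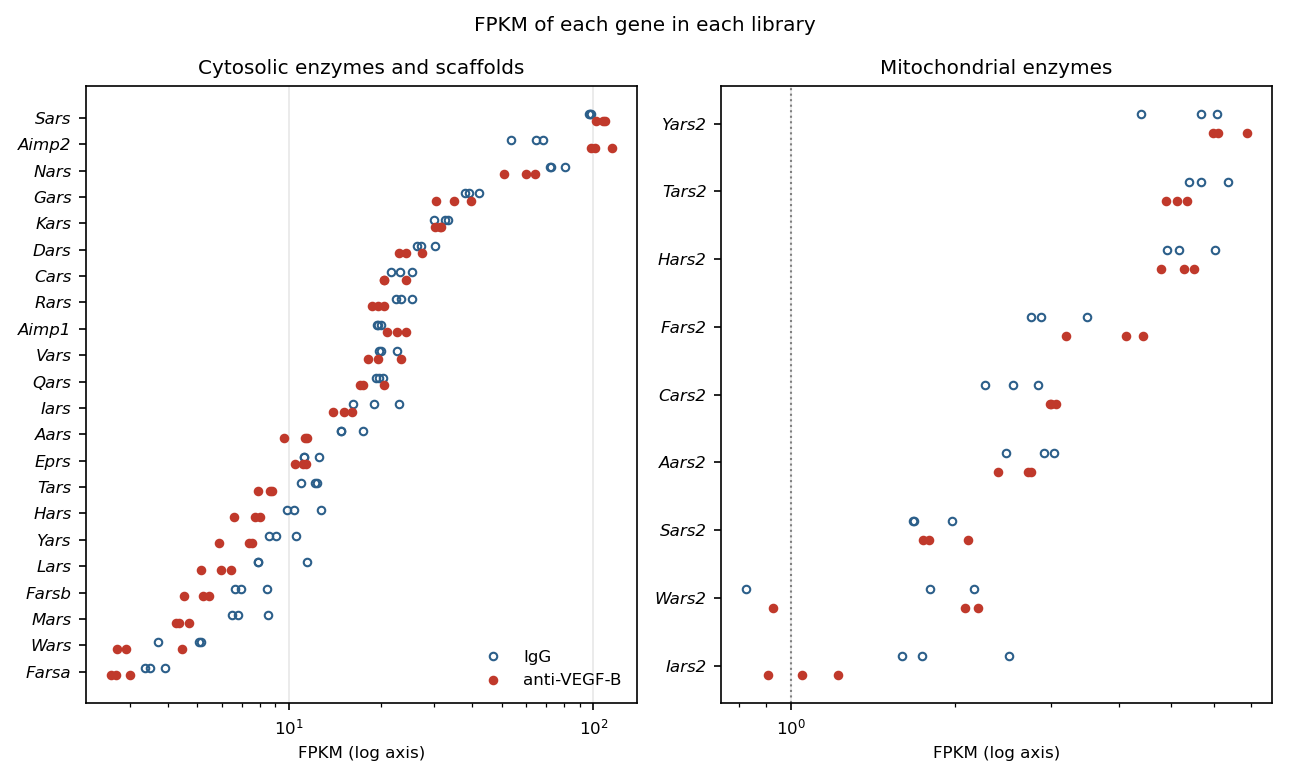
FPKM on a log axis, with 1 row per gene and 1 point per library (open blue, IgG; filled red, anti-VEGF-B), for cytosolic enzymes and scaffolds at left and the 9 tested mitochondrial enzymes at right, where the dotted line marks the minimum mean of 1 FPKM. Sars and Aimp2 lie at the high end, and without overlap the anti-VEGF-B points lie to the left of the IgG points for 11 cytosolic enzymes and to the right for Sars and both scaffolds.

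The question put to the data was whether blocking VEGF-B during activation moved the synthetase transcripts, and whether cytosolic and mitochondrial enzymes moved alike. Of the 20 cytosolic enzymes, 9 fell with the anti-VEGF-B antibody and none rose at an adjusted p under 0.05 (limma on log2(FPKM + 1), Benjamini-Hochberg over all 8816 genes tested). They were the enzymes for methionine (Mars), alanine (Aars), threonine (Tars), histidine (Hars), asparagine (Nars), leucine (Lars), tyrosine (Yars) and arginine (Rars) and the beta chain of the phenylalanine enzyme (Farsb). Fitted changes were below 0 for 19 of the 20, beside 6273 of all 8816 genes tested. Among all genes tested, 23.8% were lower and 4.87% were higher, and the median change was -0.15 on the log2 scale against -0.31 for the cytosolic enzymes. The anti-VEGF-B and IgG values did not overlap for 11 cytosolic enzymes that were lower and 1 that was higher, Sars, beside 38.5% of all genes that were lower and 10.5% that were higher without overlap.

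**Figure D2:**
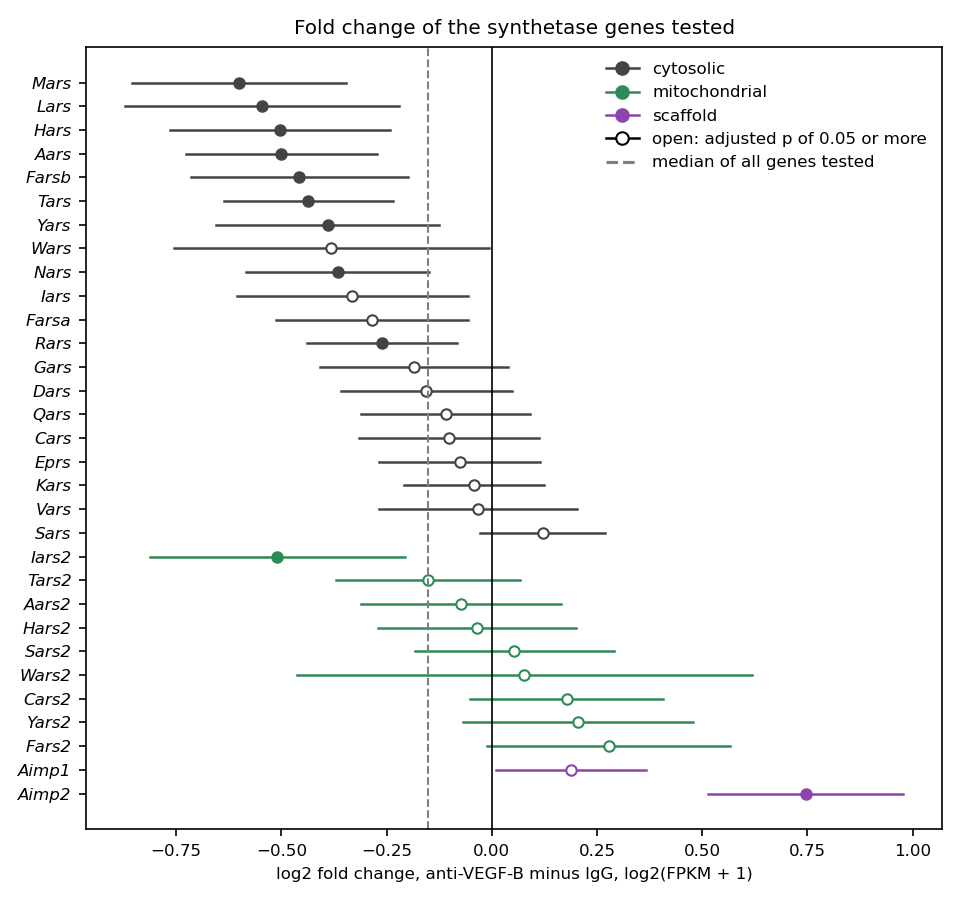
Log2 fold change, anti-VEGF-B minus IgG, of the 31 synthetase genes tested, with 95% confidence intervals from limma, coloured by compartment. Filled points have an adjusted p under 0.05 and the dashed line marks the median of all genes at -0.15; 9 cytosolic points and Iars2 are filled below 0, and Aimp2 alone is filled above 0.

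Mars, which also supplies the initiator tRNA with methionine, had 4.26, 4.69 and 4.35 FPKM in anti-VEGF-B and 6.52, 8.54 and 6.79 FPKM in IgG. All 3 anti-VEGF-B libraries lay below every IgG library. The means were 4.43 ± 0.226 and 7.28 ± 1.10 FPKM (SD, n = 3), and the log2 fold change was -0.60 ± 0.113 (SE), with an adjusted p of 0.00903 from limma. The Mars gene lies on the minus strand of chromosome 10 from 127296221 to 127311786 (GRCm38). It shares 68 bases with Ddit3 on the other strand, which had 75.0 FPKM in anti-VEGF-B and 73.3 FPKM in IgG. The effect of this overlap was not tested.

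Aars, the alanine enzyme, had 11.4, 11.3 and 9.66 FPKM in anti-VEGF-B and 14.8, 17.5 and 14.8 FPKM in IgG. The groups lay apart, with the highest value in IgG replicate 2. Its log2 fold change was -0.50 ± 0.101 (SE), with an adjusted p of 0.0108 from limma. The Aars gene (chromosome 8, 111033144 to 111057664, plus strand) contains the short gene of the exosome subunit Exosc6 on the same strand. Exosc6 had means of 0.919 FPKM in anti-VEGF-B and 2.52 FPKM in IgG. Reads of the shared stretch could have been given to either gene and the Aars value is uncertain to that extent.

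Tars, the threonine enzyme, had 8.69, 8.79 and 7.93 FPKM in anti-VEGF-B and 12.2, 12.4 and 10.9 FPKM in IgG, which gave a log2 fold change of -0.44 ± 0.0890 (SE) and an adjusted p of 0.0113 from limma. Hars, the histidine enzyme, had 7.70, 8.05 and 6.58 FPKM in anti-VEGF-B and 10.4, 12.7 and 9.83 FPKM in IgG, with a log2 fold change of -0.50 ± 0.116 (SE) and an adjusted p of 0.0157 from limma. Neither gene's groups overlapped. Hars no longer passed without anti-VEGF-B replicate 3 (log2 change -0.43, limma adjusted p = 0.0607, with 0.0128 to 0.0920 over all alternatives).

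Farsb, which pairs with Farsa in the phenylalanine enzyme, had 5.23, 4.52 and 5.47 FPKM in anti-VEGF-B and 6.93, 8.48 and 6.66 FPKM in IgG (log2 change -0.46 ± 0.114, SE, limma adjusted p = 0.0199). The partner chain Farsa had means of 2.77 ± 0.209 and 3.59 ± 0.277 FPKM (SD, n = 3), also without overlap, and a log2 fold change of -0.28 that did not pass (limma adjusted p = 0.0619). The Farsb to Farsa ratio overlapped between the groups (two-sided exact permutation p = 0.3), so the chains could not be told apart in their response at this number of libraries. The Farsb call was lost without anti-VEGF-B replicate 2 (limma adjusted p = 0.0624) and without IgG replicate 2 (0.0508), with 0.0192 to 0.0945 over all alternatives.

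Nars was the most abundant enzyme that fell, with 59.9, 64.1 and 50.8 FPKM in anti-VEGF-B and 72.8, 80.8 and 71.9 FPKM in IgG. Its log2 fold change was -0.37 ± 0.0968 (SE), with an adjusted p of 0.0240 from limma. Lars, the leucine enzyme, which has also been described as a leucine sensor for the mTORC1 kinase complex, had 5.14, 6.44 and 5.97 FPKM in anti-VEGF-B and 7.91, 11.5 and 7.93 FPKM in IgG (log2 change -0.55 ± 0.144, SE, limma adjusted p = 0.0241). For both genes the anti-VEGF-B values lay wholly below the IgG values, and IgG replicate 2 was the highest library. Yars (log2 change -0.39, limma adjusted p = 0.0365) and Rars (log2 change -0.26, limma adjusted p = 0.0378) had the highest adjusted p of the 9. Nars was lost without anti-VEGF-B replicate 3 (limma adjusted p = 0.0814) or IgG replicate 2 (0.0750), and Lars without anti-VEGF-B replicate 1 (0.0740) or 3 (0.0640). Yars was lost when either of those anti-VEGF-B replicates or IgG replicate 1 or 2 was left out (limma adjusted p from 0.0566 to 0.129), and Rars when any of the 6 libraries was (0.0552 to 0.130). The limma adjusted p over all alternatives reached 0.200 for Nars, 0.123 for Lars, 0.174 for Yars and 0.555 for Rars.

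Sars went the other way. It had 109, 108 and 102 FPKM in anti-VEGF-B and 97.0, 98.0 and 97.1 FPKM in IgG, with every anti-VEGF-B library above every IgG library. The difference was small, 1.09-fold in means and 0.12 ± 0.0660 (SE) on the log2 scale, and did not pass as deposited (limma adjusted p = 0.186). It passed as higher under median centring, one of the other scalings described below, with limma adjusted p from 0.0225 to 0.446 over all alternatives. Relative to the mean of the other 19 cytosolic enzymes Sars was higher by 0.42 on the log2 scale without overlap, at an exact permutation p of 0.1, the smallest that 3 against 3 libraries allow. Sars was already higher and the other cytosolic enzymes as a set already lower without overlap. Their ratio therefore had to lie apart, and its p adds no support. Among the 1254 genes tested with means of 30 FPKM or more, 336 were higher and 262 lower without overlap. Their median log2 fold change was 0.03, so a small rise was common at the level of Sars.

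The cytosolic enzymes that did not pass included the bifunctional Eprs (log2 fold change -0.08), Kars (-0.04), the valine enzyme Vars (-0.03), the cysteine enzyme Cars (-0.10), the glutamine enzyme Qars (-0.11), the aspartate enzyme Dars (-0.16) and Gars (-0.18), in each case with overlapping groups. The isoleucine enzyme Iars (-0.33, limma adjusted p = 0.0682) and the tryptophan enzyme Wars (-0.38, limma adjusted p = 0.111) had larger differences that did not pass either. Wars, which interferon also induces, had 4.46 FPKM in anti-VEGF-B replicate 1 and 2.91 and 2.72 FPKM in the other anti-VEGF-B libraries. Wars passed without that library (limma adjusted p = 0.0385, up to 0.460 over all alternatives), and Iars passed without IgG replicate 1 (0.0251, up to 0.349).

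Among the cytosolic enzymes, those that fell were mostly genes of lower level, a split made after the values were seen. Of the 10 with the lowest means (3.18 to 13.2 FPKM) 7 fell, with a median log2 fold change of -0.45, and of the 10 with the highest means (17.2 to 102 FPKM) 2 fell, Nars and Rars, with a median of -0.13. All genes tested followed the level too: 27.0% of the 3525 genes in the first range and 17.3% of the 1776 genes in the second were lower, with medians of -0.18 and -0.04. By the structural class of the catalytic domain, 4 of 9 class I enzymes and 5 of 10 class II enzymes fell, with medians of -0.33 and -0.33.

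The scaling between libraries matters here, because the median of all genes was itself below 0. Quantile normalization moved that median to 0.01 and centring each library on its median moved it to 0.05. Under quantile normalization 5 cytosolic enzymes were lower (Mars, Aars, Tars, Hars and Nars), beside 10.4% of all genes lower and 9.98% higher. Under median centring 3 were lower (Mars, Aars and Hars), beside 9.15% lower and 15.5% higher. The change was below 0 for 16 and 12 of the 20, respectively, and for 19 as deposited. The median of the cytosolic enzymes was 0.16 below that of all genes as deposited, and lay 0.18 below it after quantile normalization and 0.16 below it after median centring.

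The count of 9 moved with single libraries. IgG replicate 2 held the highest value of 16 of the 20 cytosolic genes and anti-VEGF-B replicate 3 the lowest of 12. The median FPKM of all genes tested was likewise highest in IgG replicate 2, at 7.08, and lowest in anti-VEGF-B replicate 3, at 5.43. Without anti-VEGF-B replicate 3, 4 cytosolic enzymes were lower, and without IgG replicate 2, 5 were lower with a median of -0.22. The genes lower or higher among all tested, 2528 with every library, numbered 859 and 1359 in these fits. Mars, Aars and Tars passed whichever library was left out.

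In the multisynthetase complex 3 of the 8 enzymes fell (Mars, Lars and Rars) and none rose, with a median log2 fold change of -0.21, which is 0.06 below that of all genes. Of the 12 cytosolic enzymes outside the complex 6 fell, with a median of -0.37, beside 23.8% of all genes lower. Aimp2, the scaffold that joins the parts of the complex, rose. Aimp2 had 101, 98.2 and 115 FPKM in anti-VEGF-B and 68.2, 53.8 and 64.8 FPKM in IgG.

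Every anti-VEGF-B library lay well above every IgG library. The means were 105 ± 8.91 and 62.2 ± 7.53 FPKM (SD, n = 3), a ratio of 1.68, and the log2 fold change was 0.75 ± 0.103 (SE) with an adjusted p of 0.00491 from limma. Of the 1254 genes tested with means of 30 FPKM or more, 184 were higher and 165 lower at an adjusted p under 0.05. As deposited Aimp2 was the only member that rose. Its change was the largest in size among the tested members with a pseudocount of 1, whereas with a pseudocount of 0.1 Iars2 differed more, at -0.81 against 0.75 for Aimp2. The gene lies on chromosome 5 from 143902704 to 143909847 on the minus strand and overlaps the kinase gene Eif2ak1 on the other strand, which had 5.78 FPKM in anti-VEGF-B and 6.69 FPKM in IgG. The library kit marks strand, but whether the authors' counting used it was not given in the sources used here.

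Aimp1, which anchors the arginine and glutamine enzymes in the complex and is also secreted as a cytokine precursor, had 24.2, 21.0 and 22.7 FPKM in anti-VEGF-B and 20.1, 19.4 and 19.7 FPKM in IgG. The groups did not overlap, but the log2 fold change of 0.19 ± 0.0791 (SE) did not pass as deposited (limma adjusted p = 0.10). It passed under quantile normalization and median centring, with a range of adjusted p from 0.0180 to 0.265 from limma over all alternatives. The other auxiliary subunit, Eef1e1, is not named by the rule and fell to 2.74 FPKM in anti-VEGF-B from 4.31 in IgG (log2 change -0.51, limma adjusted p = 0.0183), a call that neither scaling kept.

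Set against the mean of the 8 complex enzymes in the same library, Aimp2 was higher in anti-VEGF-B than in IgG by 1.01 and Aimp1 by 0.45 on the log2 scale. The log2 ratio of Aimp2 to Aimp1 was higher by 0.56, and that of Aimp2 to Eef1e1 by 1.26. None of these 4 ratios overlapped between the groups, each at the smallest exact permutation p of 0.1. Both scaffolds were already higher without overlap, and Eef1e1 and the complex enzymes as a set were lower without overlap. Ratios between these had to lie apart, so their p adds no support. Only the ratio of Aimp2 to Aimp1 was free to overlap.

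**Figure D3:**
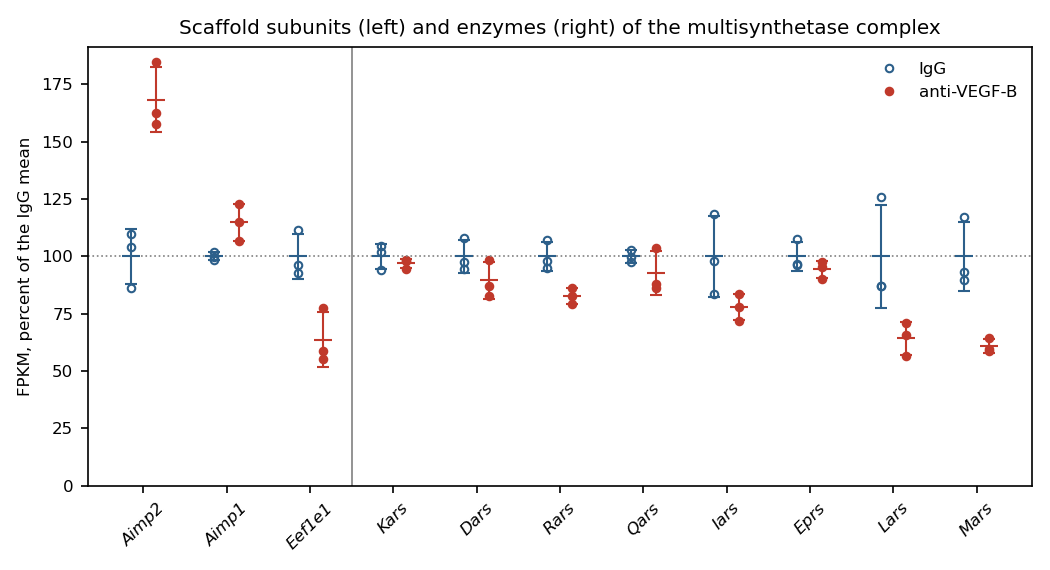
FPKM of each gene of the multisynthetase complex as a percent of its IgG mean, with 1 point per library (open blue, IgG; filled red, anti-VEGF-B) and bars at the mean ± SD (n = 3), auxiliary subunits at left and enzymes at right. Every Aimp2 point in anti-VEGF-B lies above the IgG points, and every Eef1e1, Rars, Iars, Lars and Mars point lies below them.

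Among the 9 mitochondrial enzymes with a mean of 1 FPKM or more, 1 fell and none rose as deposited, 5 had changes above 0, and the median log2 fold change was 0.05, which is 0.21 above the median of all genes. Among all genes in the same range of levels (1.5 to 5.84 FPKM) 28.3% were lower and the median was -0.22. The enzyme that fell was Iars2, for isoleucine, with 1.22, 1.04 and 0.908 FPKM in anti-VEGF-B and 1.60, 2.52 and 1.74 FPKM in IgG (log2 change -0.51 ± 0.134, SE, limma adjusted p = 0.0237). Its groups lay apart, but the call was lost under quantile normalization and median centring and without anti-VEGF-B replicate 2 (limma adjusted p = 0.0586), anti-VEGF-B replicate 3 (0.0833) or IgG replicate 2 (0.0518), with 0.0215 to 0.106 over all alternatives. Iars2 also shares 2034 bases with Rab3gap2 on the other strand, which had 11.9 FPKM in anti-VEGF-B and 11.5 FPKM in IgG. Whether reads of that stretch were given to the right gene was not tested.

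The largest differences above 0 were those of Fars2, Yars2 and Cars2. Fars2, the single-chain mitochondrial phenylalanine enzyme, had 3.20, 4.43 and 4.12 FPKM in anti-VEGF-B and 2.76, 3.50 and 2.87 FPKM in IgG (log2 change 0.28, limma adjusted p = 0.127). Cars2, which besides charging cysteine makes persulfides, had 3.00, 2.99 and 3.07 FPKM in anti-VEGF-B and 2.27, 2.85 and 2.56 FPKM in IgG, without overlap (log2 change 0.18, limma adjusted p = 0.204). Yars2 had means of 6.31 ± 0.501 and 5.37 ± 0.872 FPKM (SD, n = 3) with overlapping groups (log2 change 0.21, limma adjusted p = 0.218). Fars2 shares 920 bases with Nrn1 on the other strand, which had 43.3 FPKM in anti-VEGF-B and 63.5 FPKM in IgG. Cars2 shares 984 bases with Naxd on the other strand, at 1.34 FPKM in anti-VEGF-B and 2.09 FPKM in IgG. The effect of these overlaps was not tested.

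Fars2 and Cars2 passed as higher under both other scalings, with adjusted p over all alternatives from 0.0172 to 0.318 for Fars2 and from 0.0141 to 0.404 for Cars2 from limma. The remaining tested genes were Tars2 (log2 fold change -0.15), Aars2 (-0.07), Hars2 (-0.04), Sars2 (0.05) and Wars2 (0.08), none of which passed. Wars2 varied most, with 0.926 to 2.21 FPKM in anti-VEGF-B and 0.827 to 2.17 FPKM in IgG.

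The other 7 mitochondrial genes (among them Lars2, Pars2, Rars2 and Vars2) were tested only in a fit without the filter. None passed there, with adjusted p from 0.0727 to 0.664 from limma, beside 20.6% of all genes lower and 3.75% higher. All 7 had changes below 0, and the groups of Rars2, Vars2 and Mars2 did not overlap. Rars2, which charges mitochondrial arginine tRNA, had means of 0.608 ± 0.182 and 0.954 ± 0.113 FPKM (SD, n = 3). With these genes included the median over all 16 mitochondrial enzymes was -0.11, beside -0.15 for all genes in that fit. Of the 16, 11 were below 0 in that fit. The share of all genes below 0 was counted only with the filter, 6273 of 8816, which leaves out genes as low as these 7. On the log2(FPKM + 1) scale changes of genes as low as these 7 are understated.

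Each cytosolic enzyme was also set against its mitochondrial partner for the same amino acid within each library. Both partners were tested for 10 pairs, in which Farsa and Farsb were each set against Fars2. The log2 ratio of cytosolic to mitochondrial was lower in anti-VEGF-B without overlap in 7 pairs, overlapped in 3 (isoleucine, serine and tryptophan) and was higher without overlap in none. The nearest share over all genes tested is their ratio to the mean of the tested mitochondrial enzymes. By that ratio 39.6% were lower and 8.21% higher without overlap. Each non-overlapping pair reaches only the smallest two-sided exact permutation p of 0.1, before any adjustment over the pairs, and pairs in 1 library are not independent.

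For Hars and Hars2 the log2 ratio was 0.59, 0.53 and 0.22 in anti-VEGF-B and 0.95, 0.97 and 0.81 in IgG, a difference of -0.47. These genes lie head to head on chromosome 18, Hars at 36766530 to 36783205 on the minus strand and Hars2 at 36783008 to 36792562 on the plus strand, with 198 bases shared. Hars2 had means of 5.19 ± 0.362 and 5.36 ± 0.580 FPKM (SD, n = 3). Every anti-VEGF-B ratio lay below every IgG ratio.

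The difference in log2 ratio was -0.74 for Farsb to Fars2, -0.60 for Yars to Yars2 and -0.56 for Farsa to Fars2. It was -0.43 for Aars to Aars2, -0.28 for Tars to Tars2 and -0.28 for Cars to Cars2. The isoleucine pair, in which the mitochondrial partner Iars2 fell, had a difference of 0.18 with overlapping groups. Over all 17 pairs, low mitochondrial genes included, the ratio was lower without overlap in 8, higher in 1 (Vars to Vars2) and overlapping in 8. This count lies near the 39.6% of all genes tested that were lower without overlap relative to the mean of the tested mitochondrial enzymes.

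**Figure D4:**
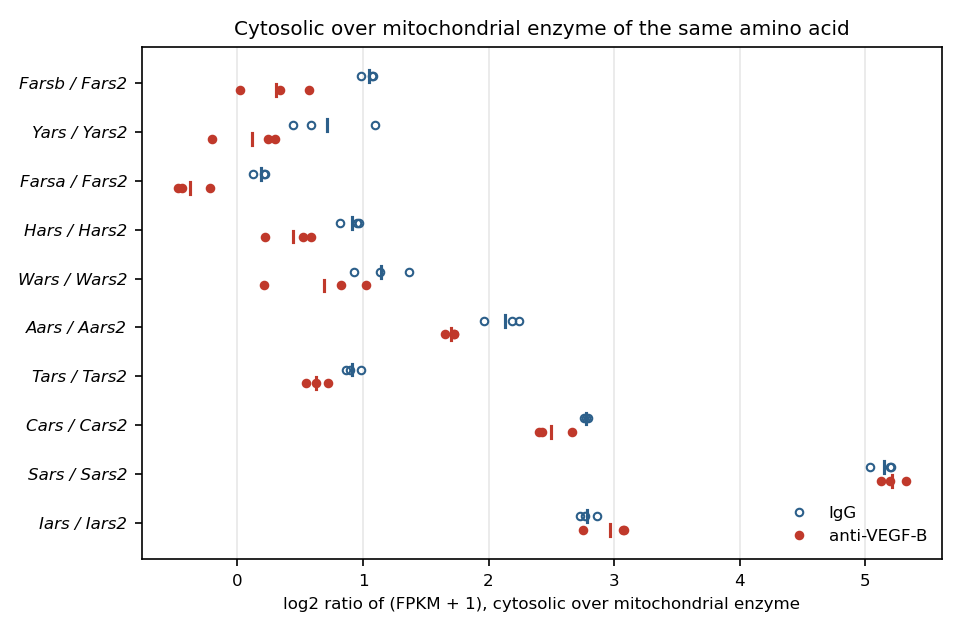
Log2 ratio of cytosolic to mitochondrial enzyme for the same amino acid, 1 row per pair with both partners tested and 1 point per library. Anti-VEGF-B points lie to the left of all IgG points in 7 of the 10 pairs, and overlap with them for isoleucine, serine and tryptophan. Relative to the mean of the tested mitochondrial enzymes, 39.6% of all genes tested were lower without overlap.

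As whole sets, the mean log2(FPKM + 1) of the 20 cytosolic enzymes minus that of the 9 tested mitochondrial enzymes was 1.88, 1.91 and 1.72 in anti-VEGF-B and 2.16, 2.17 and 2.04 in IgG. The groups did not overlap. Relative to the same mitochondrial mean, 11 of the 20 cytosolic enzymes were lower without overlap, and none were higher, beside 39.6% lower and 8.21% higher of all genes tested, with a median difference of -0.31 in the former and -0.15 in the latter. Summed FPKM of the cytosolic enzymes was 417 ± 24.7 in anti-VEGF-B and 471 ± 27.9 in IgG (SD, n = 3), a ratio of 0.885 without overlap, and the mitochondrial sum was 34.1 ± 1.12 and 35.1 ± 2.79 FPKM, with overlap. The difference between the cytosolic and the mitochondrial median was -0.36 as deposited, and -0.45 under quantile normalization, -0.43 with a pseudocount of 0.1, -0.26 with a minimum of 5 FPKM and -0.34 to -0.25 when 1 library was left out. It was -0.20 when the 7 low mitochondrial genes were included. Median centring, no moderation and the replicate block cannot alter it.

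**Figure D5:**
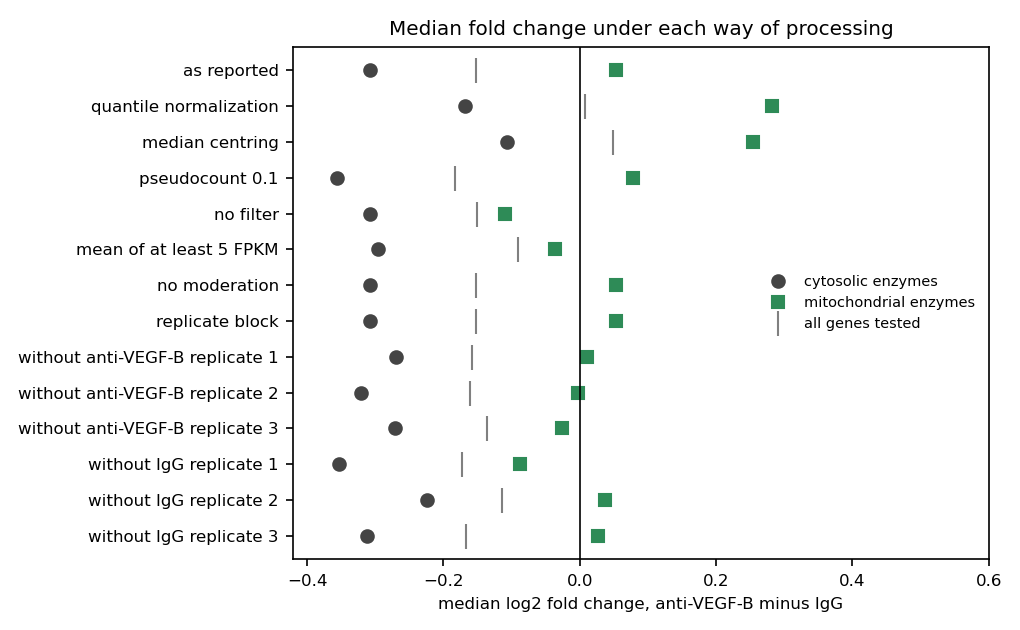
Median log2 fold change, anti-VEGF-B minus IgG, of the cytosolic enzymes (circles), the mitochondrial enzymes (squares) and all genes tested (lines) under each way of processing. The circle lies left of the square in every row, by 0.36 as deposited and by 0.20 without the filter, while both shift right under quantile normalization and median centring.

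The genes that serve the synthetases and their tRNAs were counted from lists, beside the 23.8% lower and 4.87% higher of all genes. The shares of all genes were 10.4% lower and 9.98% higher under quantile normalization, and 9.15% lower and 15.5% higher under median centring. Of 15 accessory genes of aminoacylation 12 were tested, 2 fell and none rose, with a median of -0.02. Under quantile normalization and under median centring 1 was lower and 2 were higher. The genes lower as deposited were Eef1e1 and Gatc, a subunit of the mitochondrial amidotransferase that makes glutamine tRNA in place of a mitochondrial glutamine enzyme. Gatc had 0.689 FPKM in anti-VEGF-B and 1.67 FPKM in IgG and so reached the minimum mean of 1 FPKM through IgG alone, and its partner Gatb, at 0.716 and 1.14 FPKM, did not reach it. In the fit without the filter both were lower (limma adjusted p = 0.0232 for Gatc and 0.0267 for Gatb). Tarsl2, a cytosolic relative of Tars, had 1.12 FPKM in anti-VEGF-B and 0.999 FPKM in IgG without overlap, and reached the minimum through anti-VEGF-B alone. It did not pass as deposited (limma adjusted p = 0.495) and passed as higher under quantile normalization (0.0357) and median centring (0.0390).

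Of 22 tested genes of RNA polymerase III transcription, 7 fell and 1 rose, with a median of -0.21. Of the 7, Polr3d reached the minimum through IgG alone. Under quantile normalization 2 were lower (Polr3gl and Polr1c) and 1 higher, and under median centring 1 was lower (Polr3gl) and 1 higher. The interchangeable polymerase subunits moved apart under all of these scalings: Polr3gl fell to 3.18 FPKM in anti-VEGF-B from 5.58 in IgG (log2 change -0.64, limma adjusted p = 0.0110), and Polr3g rose to 11.5 FPKM in anti-VEGF-B from 8.0 in IgG (log2 change 0.46, limma adjusted p = 0.0152). Polr1c, shared with polymerase I, fell by 0.35 as deposited, a call that median centring did not keep. The factor subunit Gtf3c6 fell by 0.46 as deposited, a call that neither other scaling kept.

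Of 20 tested genes of tRNA end processing, splicing and export, 7 fell and 1 rose as deposited, with a median of -0.19. The balance turned with the scaling, as it did over all genes tested. Under quantile normalization 1 was lower and 1 higher, and under median centring 1 was lower and 3 were higher. The La protein gene Ssb, which binds new tRNA ends, was the lower gene under each of them and fell to 36.5 FPKM in anti-VEGF-B from 51.4 in IgG (log2 change -0.48, limma adjusted p = 0.00621). The RNase P genes Rpp14 and Pop1 fell by 0.37 and 0.38 as deposited and passed under neither other scaling. Hsd17b10, a subunit of mitochondrial RNase P, rose to 51.5 FPKM in anti-VEGF-B from 42.8 in IgG (log2 change 0.26, limma adjusted p = 0.0239).

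Of the 5 genes of cytosolic translation elongation none passed as deposited, and all 5 changes were above 0, with a median of 0.16. Except for Eef1d, at 29.5 FPKM in anti-VEGF-B and 28.7 FPKM in IgG, these genes lay above 30 FPKM. Among the 1254 genes tested with means of 30 FPKM or more, 693 changes were above 0 and the median was 0.03. Eef2, the translocation factor, passed as higher under quantile normalization, where the median of the 5 genes was 0.07. Of 9 tested mitochondrial translation factors 1 was lower, Tsfm, with 0.778 FPKM in anti-VEGF-B and 1.51 FPKM in IgG. Tsfm reached the minimum through IgG alone, was also lower in the fit without the filter (limma adjusted p = 0.0181), and did not pass under quantile normalization (0.0573).

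The amino acid response is the programme in which the kinase GCN2 senses uncharged tRNA and the factor ATF4 induces transporters, synthesis enzymes and many cytosolic synthetases. Of its 32 tested genes 10 fell and 4 rose as deposited, with a median of -0.23, and 1 of the 10, Nupr1, reached the minimum through IgG alone. The balance turned with the scaling, as it did over all genes tested. There were 7 lower and 5 higher under quantile normalization (median -0.09) and 5 lower and 7 higher under median centring (median -0.03). The genes named next passed in the same direction under all of these scalings. The transcription factor gene Cebpb rose to 79.8 FPKM in anti-VEGF-B from 33.0 in IgG (log2 change 1.25, limma adjusted p = 0.00279).

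The glutamine transporter gene Slc1a5 fell to 8.80 FPKM in anti-VEGF-B from 17.1 in IgG (log2 change -0.88, limma adjusted p = 0.00488), the leucine sensor gene Sesn2 fell to 14.9 FPKM in anti-VEGF-B from 24.9 in IgG (log2 change -0.70, limma adjusted p = 0.00711) and the transporter gene Slc38a1 fell by 0.57. Atf4 itself, added after its values were seen, rose to 763 FPKM in anti-VEGF-B from 581 in IgG (log2 change 0.40, limma adjusted p = 0.0127). Also added were the remaining genes that passed in the same direction under all of these scalings. The transporter gene Slc3a2 rose to 59.7 FPKM in anti-VEGF-B from 47.3 in IgG (log2 change 0.33, limma adjusted p = 0.0257), and Trib3 rose by 0.29. The transporter gene Slc7a5 fell by 0.80 and Aldh18a1 by 0.79.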

How the data were processed

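RNA of 6 libraries was sequenced after stranded library preparation. The authors aligned the reads with HISAT2 (mouse build GRCm38/mm10), assembled them with StringTie and computed FPKM with Ballgown. The deposited table gives these FPKM values per gene, and no read counts were used here. Depth is unknown: at most 0.935% of genes under 0.3 FPKM shared a ratio between 2 libraries, so whole reads could not be recovered.

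Genes whose mean reached 1 FPKM (8816 of 10995) were fitted as log2(FPKM + 1) with limma 3.58.1 in R 4.3.3 (moderated test with a mean trend, both groups of 3 libraries, anti-VEGF-B minus IgG), with Benjamini-Hochberg adjustment over all genes tested and a threshold of 0.05. For low genes this scale gives too small a fold change. Single ratios were tested with two-sided exact permutation tests (Python 3.11.15, scipy 1.17.1), which cannot go below 0.1 with 3 against 3. The script was tested on simulated data.

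The alternatives were quantile normalization, median centring, a pseudocount of 0.1, no filter, a minimum of 5 FPKM, no moderation, a replicate block and leaving out each library. Members and gene lists were chosen with earlier results of these data known. Values per library were given for the called members with the 6 lowest p in each compartment, the scaffolds, the 3 largest changes and members moving against most others, and for each pathway list up to 4 called genes with the lowest p. Sequences were not used here, and the values of 1 member are not reported here.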

Additional observations from a re-analysis of the deposited data

How the results depend on the processing

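The number of genes lower or higher among all 8816 tested (2528) fell to 1331 with a minimum of 5 FPKM, for which fewer genes were tested, to 12 without moderation, and to between 859 and 2467 when 1 library was left out (859 when anti-VEGF-B replicate 3 was left out, 1359 for IgG replicate 2, 1679 for anti-VEGF-B replicate 1). Synthetase genes that were lower numbered 10 as deposited, 5 under quantile normalization, 3 under median centring, 0 without moderation (the 11 members called otherwise then had adjusted p from 0.0696 to 0.123) and 4 to 9 without 1 library. Those that were higher numbered 1 as deposited and 4, 5 and 0 in the same order of settings, and 1 to 1 without 1 library. Cytosolic enzymes that were lower numbered 9 as deposited, then 5, 3 and 0, and 4 to 8 without 1 library. The single mitochondrial call, Iars2, became 0 under quantile normalization, median centring, a minimum of 5 FPKM (Iars2 was then not tested) and no moderation, and 0 to 1 calls were left without 1 library. The cytosolic median of -0.31 became -0.17 under quantile normalization and -0.11 under median centring, and ran from -0.35 to -0.22 without 1 library. The mitochondrial median of 0.05 became 0.28, 0.25, -0.11 without the filter and -0.036 with a minimum of 5 FPKM, and ran from -0.088 to 0.037 without 1 library. Their difference of -0.36 became -0.45 under quantile normalization, -0.43 with a pseudocount of 0.1, -0.20 without the filter and -0.26 with a minimum of 5 FPKM, and ran from -0.34 to -0.25 without 1 library. Members not called as deposited whose log2 fold change turned above 0 were, under quantile normalization, Aars2 (0.17), Eprs (0.068), Hars2 (0.17), Kars (0.011), Tars2 (0.049) and Vars (0.061), and, under median centring, Aars2 (0.13), Cars (0.10), Dars (0.045), Eprs (0.12), Gars (0.016), Hars2 (0.16), Kars (0.16), Qars (0.091), Tars2 (0.049) and Vars (0.17). Without 1 library the log2 fold change ran from -0.088 to 0.037 for Hars2, from -0.0025 to 0.10 for Sars2, from -0.13 to 0.041 for Vars and from -0.16 to 0.31 for Wars2. The cause of these shifts was not tested.

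The labels number the replicates 1 to 3 in each group, but deviations of same-numbered libraries correlated at only -0.0296, 0.11 and 0.0891, so the numbers were not taken as pairs. With the replicate block 10 cytosolic enzymes were lower in place of 9, because Iars then passed (adjusted p = 0.0303 from limma, with 0.0251 to 0.349 over its alternatives), and it changed no other member's call. Aimp2 passed under every alternative except no moderation. With depth unknown, counting error could not be separated from the spread between libraries, which limits the 7 mitochondrial genes under 1 FPKM most.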
